A study of Mus musculus with 10 samples.

Results

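Transcripts of the creatine cycle and of the SERCA calcium pumps were examined in brown adipose tissue, a fat depot that burns fuel to make heat. The genes were Ckb, Ckmt1, Ckmt2, Gatm, Gamt, Slc6a8, Atp2a2 and Atp2a3. Every probe set that the platform annotation assigns to 1 of these genes alone was used, which gave 16 of the 34945 probe sets with a single gene and 8 of 18193 genes. A probe set is a group of short probes on an Affymetrix array that together give 1 signal, and it can read more than 1 transcript of a gene. Tissue came from 5 wild-type (WT) mice and from 5 littermates labelled SIRT3 knockout (KO), all untreated, about 1 year old and on a 129 background. Sirt3 encodes a mitochondrial deacetylase, and the sources used here do not say how its gene was deleted. Each mouse is taken to have given 1 array. The labels speak of littermates but do not tie an animal to each array, so p-values measure the spread between these 10 arrays. All values are log2 signals, and a difference of 1 is a change of signal by a factor of 2.

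In the creatine cycle, creatine kinase transfers phosphate from ATP to creatine and phosphocreatine loses it again, so that ATP made in mitochondria is spent and heat is released. SERCA pumps move calcium from the cytosol into the endoplasmic or sarcoplasmic reticulum at the cost of ATP, and in beige fat a loop of calcium uptake and release through SERCA2b and a ryanodine receptor is known as another source of heat that needs no Ucp1. Skeletal muscle uses its own members of both families, Ckm and Ckmt2 for creatine kinase and Atp2a1 for the pump, and brown fat is dissected from beside muscle.

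The tissue carried the markers of brown fat on every array. Ucp1, the uncoupling protein of brown fat mitochondria, gave between 13.96 and 14.28. The mean of the 12 measured of 14 brown adipocyte markers lay between 11.21 and 11.61 in WT and between 11.24 and 11.45 in KO. The arrays resembled each other, with correlations from 0.988 to 0.997, and had medians from 5.58 to 5.61, while the mean of the brown adipocyte markers varied little. Skeletal muscle markers differed far more between arrays than this mean did. Single brown adipocyte markers spread further than their mean, Dio2 by 2.66 and Zic1 by 1.97 log2 units, against 7.71 for the muscle marker Acta1. Acta1, the actin of skeletal muscle fibres, read 13.59, 13.86, 13.79, 12.49 and 10.36 in WT 1 to 5. It read 6.45, 13.92, 6.21, 13.68 and 13.12 in KO 1 to 5. Thus 7 arrays lay together from 12.49 to 13.92, WT 5 lay lower, and KO 1 and KO 3 lay lowest. The mean of all 19 muscle markers ranged from 7.11 to 11.29 in WT and from 5.19 to 10.52 in KO. All 19 were lower on average in KO, and none passed the test. In tissue of mixed cells, fewer muscle cells and less RNA per muscle cell cannot be told apart.

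The Sirt3 probe set (1417892_a_at) was not lower in the arrays labelled KO. It read 10.03 to 10.28 in WT and 10.22 to 10.40 in KO, a difference of 0.19 ± 0.062 (KO minus WT ± SE; 95% confidence interval 0.05 to 0.33; limma adjusted p = 0.885). A probe set outside the deleted part would not check the labels, so every direction below refers to arrays labelled KO.

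The start regions of Ckmt2, Ckm, Atp2a1 and Ckb are shown because the first 3 of these genes followed Acta1 across the arrays and Ckb did not. Each is the 250 bases before the start of the RefSeq gene in build GRCm38.p6, read 5′ to 3′ on the strand of the gene. The capitals mark matches to the E-box CAGCTG, to the TATA box TATAAA or to the MEF2 site, all searched on both strands. Ckmt2 is at chr13:91876886-91877135 on the minus strand, Ckm at chr7:19410844-19411093 on the plus strand, Atp2a1 at chr7:126463074-126463323 on the minus strand and Ckb at chr12:111672339-111672588 on the minus strand.
Ckmt2: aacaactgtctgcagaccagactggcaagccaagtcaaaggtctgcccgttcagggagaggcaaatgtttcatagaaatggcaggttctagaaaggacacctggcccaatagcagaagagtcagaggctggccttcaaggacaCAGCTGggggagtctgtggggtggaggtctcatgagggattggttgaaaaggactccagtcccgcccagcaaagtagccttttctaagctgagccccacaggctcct
Ckm: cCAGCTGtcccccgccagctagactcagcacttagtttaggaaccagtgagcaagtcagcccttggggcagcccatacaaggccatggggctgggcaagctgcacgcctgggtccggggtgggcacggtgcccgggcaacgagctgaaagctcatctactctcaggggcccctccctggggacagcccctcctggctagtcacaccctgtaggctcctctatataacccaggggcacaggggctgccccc
Atp2a1: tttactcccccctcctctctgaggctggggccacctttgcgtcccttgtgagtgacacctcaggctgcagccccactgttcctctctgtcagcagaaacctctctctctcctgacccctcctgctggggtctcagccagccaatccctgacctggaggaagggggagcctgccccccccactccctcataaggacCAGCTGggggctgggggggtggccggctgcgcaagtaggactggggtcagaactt
Ckb: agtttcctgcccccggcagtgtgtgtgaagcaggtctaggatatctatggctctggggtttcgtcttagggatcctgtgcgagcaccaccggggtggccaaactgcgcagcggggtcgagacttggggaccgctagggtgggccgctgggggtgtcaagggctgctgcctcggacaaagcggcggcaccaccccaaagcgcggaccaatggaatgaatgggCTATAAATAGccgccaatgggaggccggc

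The E-box letters CAGCTG, a form bound by muscle basic helix-loop-helix factors, stand at -107 in Ckmt2, -249 in Ckm and -55 in Atp2a1, counted from the gene start to the first base of the match. The same letters are in 16.3% of the 32851 promoter windows of 300 bases in the table, and in a window of Ckmt1 at -1. In Ckb the capitals are a TATA box at -28 inside a match to the MEF2 site at -29, so the matches overlap. TATAAA also stands at -31 on the minus strand in the window of Ckmt1 that holds the E-box. It is in 13.6% of the windows and a MEF2 site in 3.19%. TNAAGGTCA, the letters bound by ERR nuclear receptors, is in 1.28% of them and in none of the windows searched here. Of the 10 genes searched, 8 had an entry. Slc6a8 and Atp2a2 were without one. A match is a string of letters and not a measured binding site.

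Ckmt2 encodes the sarcomeric creatine kinase of mitochondria, which passes phosphate from mitochondrial ATP to creatine. Its probe set (1428722_at) read 9.16, 10.26, 9.62, 7.74 and 5.00 in WT 1 to 5 and 3.73, 9.76, 4.10, 9.12 and 8.22 in KO 1 to 5. It was lowest on KO 1, KO 3 and WT 5, the 3 arrays with the least Acta1, and its range of 6.53 log2 units was the widest of all 16 probe sets. The groups overlapped over most of that range. On KO 1, KO 3 and WT 5 it lay below the array medians of 5.58 to 5.61. With no detection call, whether the transcript was present on those arrays is not known.

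Ckmt2 followed Acta1 closely. With genotype in the model, it rose by 0.80 ± 0.077 log2 units (SE) per log2 unit of Acta1 (95% confidence interval 0.63 to 0.97; limma adjusted p = 0.00069 over all probe sets). It was the 1 of 16 probe sets called in this test with a positive slope, against 0.458% of the 34944 probe sets tested. No member was called with a negative slope, against 0.0229%. Pearson's r with Acta1 was 0.96 (permutation p = 3.0e-05) and Spearman's rho 0.96 (permutation p = 7.0e-05) over 10 arrays, which do not form 1 cloud. Without KO 1 and KO 3, the arrays farthest from the median of Acta1, r was 0.98 (exact permutation p = 0.00015). Within the 7 arrays that lie together it was 0.94 (exact permutation p = 0.0012). The slope lay between 0.73 and 0.87 when each array was left out in turn, and the largest adjusted p was 0.011. Without the 3 arrays lowest in muscle RNA, where Ckmt2 lay below the array medians, the slope was 1.67.

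**Figure D1:**
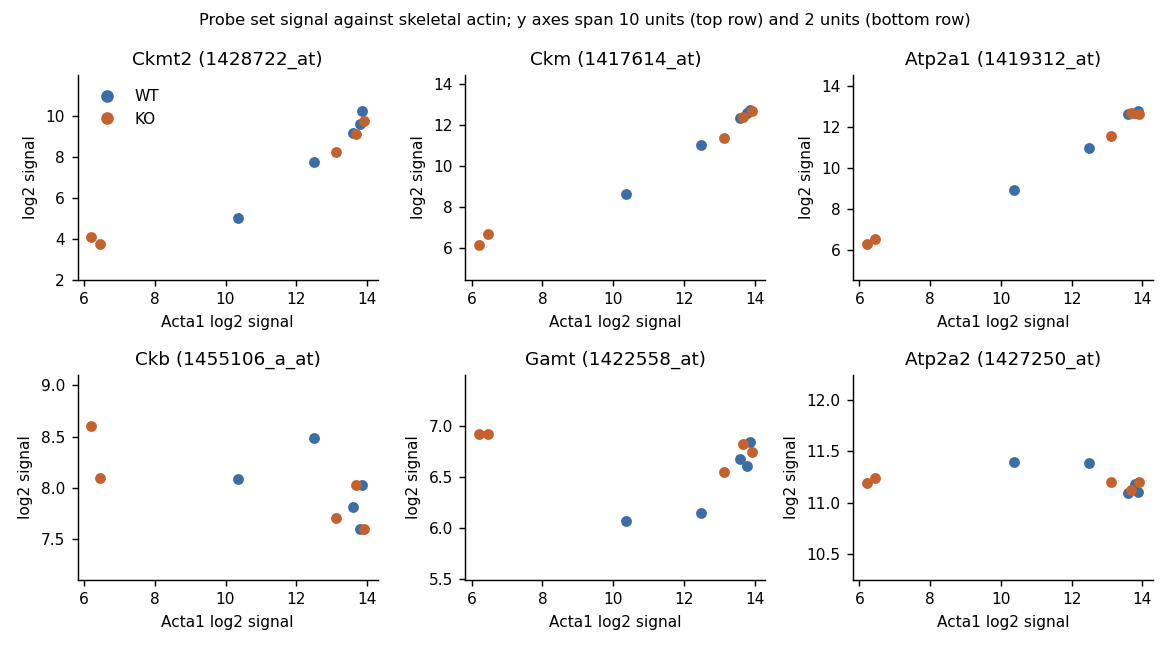
Log2 signal of Ckmt2, Ckm, Atp2a1, Ckb, Gamt and Atp2a2 (vertical axes) against the log2 signal of Acta1 (horizontal axes) on each of the 10 arrays, with WT and KO arrays in different colours. Ckmt2, Ckm and Atp2a1 climb with Acta1 from KO 3 and KO 1 to the arrays above 12.49, while Ckb, Gamt and Atp2a2 do not.

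The muscle isoforms of the same families also rose and fell with Acta1. Ckm, the creatine kinase of the muscle cytosol, read 12.34, 12.73, 12.60, 11.01 and 8.62 in WT 1 to 5 and 6.66, 12.69, 6.14, 12.40 and 11.36 in KO 1 to 5. Atp2a1, the SERCA1 pump of fast muscle fibres, read 12.65, 12.80, 12.67, 10.99 and 8.95 in WT and 6.54, 12.64, 6.29, 12.69 and 11.57 in KO. Both were lowest on KO 3 and KO 1, as was Acta1. Per log2 unit of Acta1, Ckm rose by 0.84 (95% confidence interval 0.75 to 0.94; limma adjusted p = 3.5e-06). Atp2a1 rose by 0.85 (0.77 to 0.94; limma adjusted p = 8.6e-07). A second probe set of Ckm (1444643_at) rose by 0.18 (0.11 to 0.25; limma adjusted p = 0.043). The interval of the Ckmt2 slope overlaps those of Atp2a1 and of the brighter Ckm probe set.

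The genes whose signal was most like that of Ckmt2 over the 10 arrays were Smpx (r = 0.998), a small muscle protein, Eno3 (r = 0.996), the muscle enolase, and Rtn2 (r = 0.995), a reticulon. They were taken from 9096 genes with a mean signal above the median, as were those named for each other member below. The highest of so many r values over 10 arrays can be large for unrelated genes, and none was tested.

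Between genotypes, Ckmt2 averaged 8.36 ± 2.09 (SD, n = 5) in WT and 6.99 ± 2.86 (SD, n = 5) in KO. The difference was -1.37 ± 1.32 (SE; 95% confidence interval -4.25 to 1.51; limma adjusted p = 0.905). With Acta1 as a covariate the sign turned, to 0.34 (-0.65 to 1.33; limma adjusted p = 0.877). Without the 3 arrays lowest in muscle RNA the difference was -0.16, and without WT 4 and WT 5 it was -2.69. Of the variance of Ckmt2 over the 10 arrays, 91.2% was shared with Acta1 (the square of r).

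**Figure D2:**
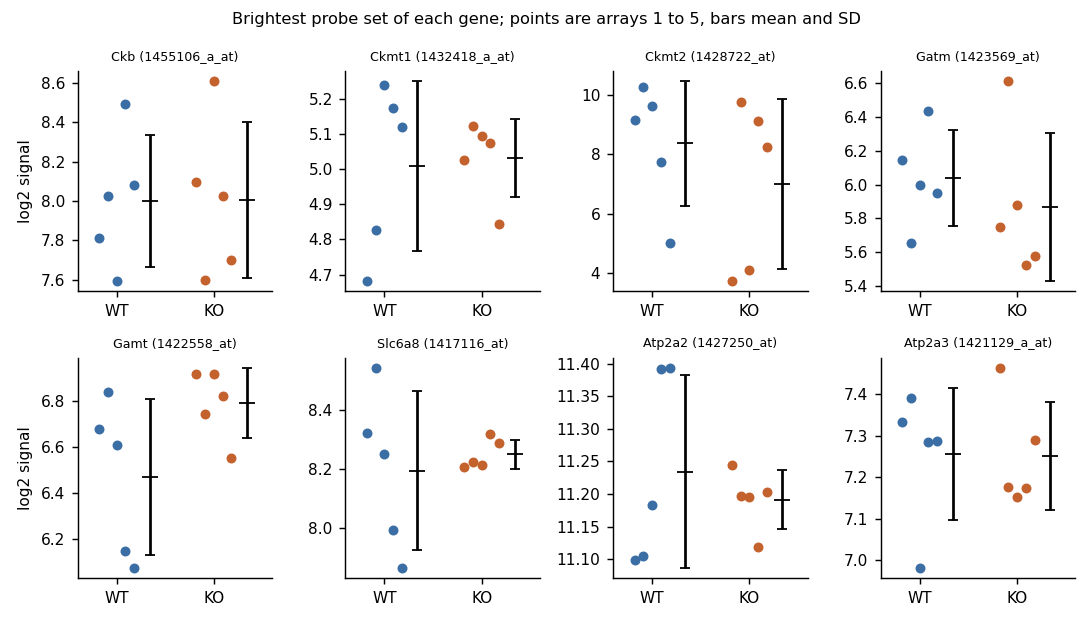
Log2 signal of the brightest probe set of each of the 8 genes on the 5 WT and 5 KO arrays, 1 point per array, with the mean and SD of each group beside the points and a scale of its own for each gene. Ckmt2 spreads over 6.53 log2 units, and the WT and KO points overlap in all 8 genes.

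Ckb encodes the brain-type creatine kinase, the form linked to the creatine cycle in thermogenic fat. Its probe set (1455106_a_at) read 7.81, 8.03, 7.59, 8.49 and 8.08 in WT 1 to 5 and 8.10, 7.60, 8.61, 8.03 and 7.70 in KO 1 to 5. The groups lay over each other, with the highest values on KO 3 and WT 4 and the lowest on WT 3 and KO 2. The means were 8.001 ± 0.335 (SD, n = 5) in WT and 8.006 ± 0.397 (SD, n = 5) in KO. The difference was 0.0049 ± 0.20 (SE; 95% confidence interval -0.43 to 0.44; limma adjusted p = 0.998), so a change of up to about 0.4 either way lies within the interval.

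Ckb ran against muscle RNA where Ckmt2 ran with it, but not past the test. The slope on Acta1 was -0.08 (95% confidence interval -0.15 to -0.02; limma adjusted p = 0.447). Pearson's r was -0.63 (permutation p = 0.050) and Spearman's rho -0.77 (permutation p = 0.012). Without KO 1 and KO 3 r was -0.47 (exact permutation p = 0.23), so the relation rests in part on those arrays. Without KO 3 alone it was -0.39 (exact permutation p = 0.31). Within the 7 arrays that lie together r was -0.68 (exact permutation p = 0.077). The brown adipocyte mean was high on most arrays with less muscle RNA, at 11.61 on WT 5, 11.48 on WT 4, 11.45 on KO 1 and 11.35 on KO 3, against 11.21 on WT 2. WT 3, with much Acta1, had 11.38. Within that mean, Dio2 read 11.32 on WT 5 and 11.20 on WT 4, against 8.65 to 9.95 on the other arrays. The part of the brown adipocyte mean in the slope of Ckb was not tested. The genes most like Ckb were Arhgap32 (r = 0.91), Slc25a26 (r = 0.91), the mitochondrial carrier of S-adenosylmethionine, and Pde8a (r = 0.89), a cyclic AMP phosphodiesterase.

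Ckmt1, the ubiquitous mitochondrial creatine kinase, had low signals. The brighter of its probe sets (1432418_a_at) read 4.68, 4.83, 5.24, 5.17 and 5.12 in WT and 5.03, 5.12, 5.09, 5.07 and 4.84 in KO. The other (1417089_a_at) lay between 3.09 and 3.64. Both sat below the array medians of 5.58 to 5.61 on every array, and the deposited values carry no detection call, so the files do not say whether the transcript was present. The differences were 0.02 and -0.07, and neither passed the test. The probe sets did not track each other over the arrays (r = 0.11; permutation p = 0.76). Slopes on Acta1 were -0.012 and -0.041 (limma adjusted p = 0.914 and 0.474). The genes most like the brighter probe set were Spns3 (r = 0.93), Wdr82 (r = 0.86) and Ece2 (r = 0.85).

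**Figure D3:**
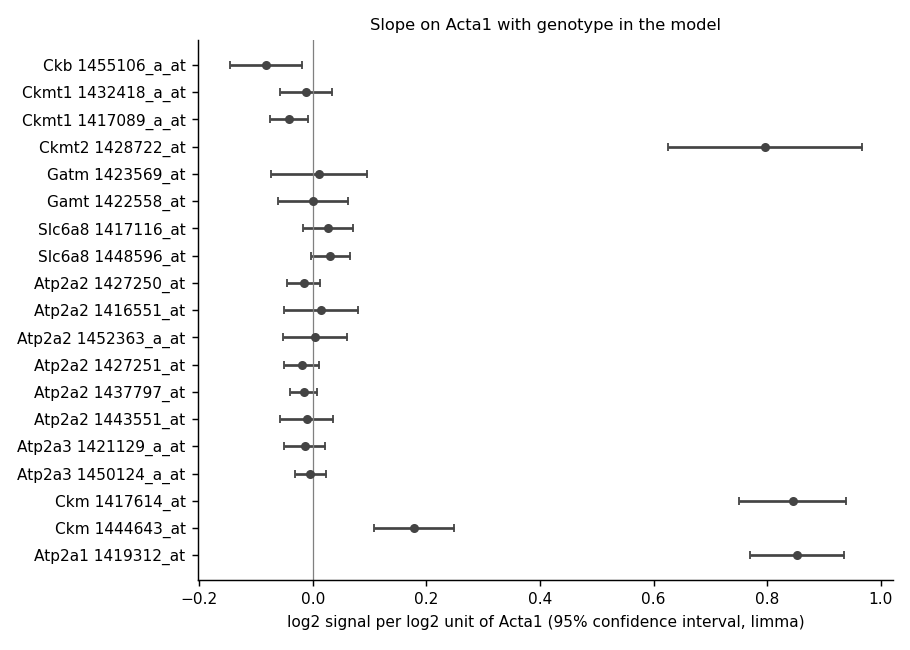
Slope on Acta1 (log2 units per log2 unit of Acta1, horizontal axis) with its 95% confidence interval for the 16 member probe sets and for Ckm and Atp2a1, with genotype in the model. The Ckmt2 interval of 0.63 to 0.97 lies with those of Atp2a1 and the brighter Ckm probe set, and the other 15 member slopes lie between -0.08 and 0.031.

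Gatm and Gamt catalyse the steps of creatine synthesis. Gatm, which makes guanidinoacetate from arginine and glycine, read 6.15, 5.66, 6.00, 6.43 and 5.95 in WT 1 to 5 and 5.75, 6.61, 5.88, 5.53 and 5.58 in KO 1 to 5 (1423569_at). The highest value, on KO 2, and the lowest, on KO 4, were both from KO. On KO 4 and KO 5 Gatm lay below the array medians, and with no detection call its presence there is not known. The difference was -0.17 ± 0.20 (SE; limma adjusted p = 0.928), and r with Acta1 was 0.18. Single arrays moved the difference, to -0.35 without KO 2 (limma adjusted p = 0.812) and to -0.069 without WT 4 (limma adjusted p = 0.990). The genes most like Gatm were Slc17a5 (r = 0.94), a lysosomal sialic acid exporter, Tor1aip1 (r = 0.93) and Rcn3 (r = 0.91).

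Gamt, which methylates guanidinoacetate to creatine, read 6.68, 6.84, 6.61, 6.15 and 6.07 in WT 1 to 5 and 6.92, 6.75, 6.92, 6.82 and 6.55 in KO 1 to 5 (1422558_at). WT 4 and WT 5 lay below all other arrays, and the other WT arrays lay among the KO arrays. Means were 6.47 ± 0.34 (SD, n = 5) in WT and 6.79 ± 0.15 (SD, n = 5) in KO. The difference was 0.32 ± 0.15 (SE; 95% confidence interval 0.01 to 0.64), with an unadjusted limma p of 0.046 and an adjusted p of 0.885. When WT 4 and WT 5 were removed, a choice made after the values were seen, it was 0.084.

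The same WT arrays had the highest macrophage means, 7.40 on WT 4 and 7.51 on WT 5, where the other arrays ranged from 6.90 to 7.30. They also had the highest brown adipocyte means. Single genes weighed heavily in both. Cd163 read 7.27 on WT 4 and 6.93 on WT 5, against 5.28 to 6.44 elsewhere. Dio2 read 11.20 and 11.32, against 8.65 to 9.95. Mrc1 was also highest on WT 4 and WT 5, but the macrophage markers Cd68 and Csf1r and the brown adipocyte markers Cidea and Fabp4 were highest on other arrays. The part of these means in the Gamt difference was not tested. Over 10 arrays Gamt did not follow Acta1 (r = -0.21; slope 0.00029; limma adjusted p = 0.999). Without KO 1 and KO 3 r was 0.88 (exact permutation p = 0.0013), and within the 7 arrays that lie together it was 0.92 (exact permutation p = 0.011). KO 1 and KO 3 were among the highest in Gamt while having the least Acta1. Of the arrays left without them, WT 5 and WT 4 were lowest in both Acta1 and Gamt, and WT 4 was lowest in both within the 7. How far the r values of 0.88 and 0.92 rest on WT 4 and WT 5 was not tested. With KO 1 and KO 3 kept and WT 4 and WT 5 left out, the slope was -0.027 (limma adjusted p = 0.659). Most like Gamt were Snx7 (r = 0.98), a sorting nexin, Fam149a (r = 0.98) and Tm6sf1 (r = 0.97).

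Slc6a8 encodes the creatine transporter of the plasma membrane. Its brighter probe set (1417116_at) read 8.32, 8.54, 8.25, 7.99 and 7.87 in WT 1 to 5 and 8.21, 8.23, 8.22, 8.32 and 8.29 in KO 1 to 5. The other (1448596_at) read 7.73, 7.86, 7.87, 7.42 and 7.50 in WT and 7.71, 7.90, 7.80, 7.94 and 7.87 in KO. Both were lowest on WT 4 and WT 5, the arrays that were also lowest in Gamt. The probe sets tracked each other (r = 0.79; permutation p = 0.0094, adjusted p = 0.049 over 18 pairs of probe sets).

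Slc6a8 did not pass the test between genotypes. The differences were 0.06 ± 0.11 (SE; limma adjusted p = 0.953) and 0.17 ± 0.094 (SE; limma adjusted p = 0.885). Without WT 4 and WT 5 they were -0.12 and 0.024. With Acta1 as a covariate the second was 0.23 (95% confidence interval 0.04 to 0.43; unadjusted limma p of 0.025, adjusted p = 0.639). Slopes on Acta1 were 0.027 and 0.031 (limma adjusted p = 0.744 and 0.623). Without the 3 arrays lowest in muscle RNA they were 0.23 and 0.26 (limma adjusted p = 0.447 and 0.248). Without WT 4 and WT 5, the arrays lowest in Slc6a8, they were 0.0092 and 0.021 (limma adjusted p = 0.880 and 0.659). Pearson's r with Acta1 was 0.33 and 0.28 over 10 arrays, and 0.84 and 0.77 without KO 1 and KO 3 (exact permutation p = 0.0076 and 0.026). Most like the brighter probe set were Ntn1 (r = 0.97), a guidance cue, Sae1 (r = 0.97), a subunit of the SUMO-activating enzyme, and Anapc2 (r = 0.95), a subunit of the anaphase-promoting complex.

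Atp2a2 encodes the SERCA2 pump, whose SERCA2a form serves heart and slow muscle fibres and whose SERCA2b form is found in most cells. It was read by 6 probe sets. The brightest (1427250_at) read 11.10, 11.11, 11.18, 11.39 and 11.39 in WT 1 to 5 and 11.24, 11.20, 11.19, 11.12 and 11.20 in KO 1 to 5. It spanned 0.29 log2 units, with WT 4 and WT 5 highest. The difference between genotypes was -0.04 ± 0.071 (SE; 95% confidence interval -0.20 to 0.11; limma adjusted p = 0.947).

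Another pair of Atp2a2 probe sets gave a different picture. 1416551_at read 10.53, 11.39, 10.42, 10.72 and 10.56 in WT 1 to 5 and 10.34, 10.36, 10.21, 10.39 and 10.19 in KO 1 to 5. 1452363_a_at read 9.54, 10.20, 9.36, 9.61 and 9.53 in WT and 9.31, 9.26, 9.24, 9.34 and 9.13 in KO. In both, every WT array lay above every KO array, and WT 2 stood highest. Groups failed to overlap in these 2 of 16 probe sets, against 0.693% of all probe sets. For 1416551_at the means were 10.72 ± 0.39 (SD, n = 5) in WT and 10.30 ± 0.09 (SD, n = 5) in KO, a difference of -0.42 ± 0.15 (SE; 95% confidence interval -0.76 to -0.09), with an unadjusted limma p of 0.018 and an adjusted p of 0.885. For 1452363_a_at the difference was -0.39 ± 0.13 (SE; -0.68 to -0.10), with an unadjusted limma p of 0.012 and an adjusted p of 0.885. These probe sets tracked each other (r = 0.99; permutation p = 1e-05, the smallest that the resamples can give, adjusted p = 0.00018) and count as 1 reading rather than 2. Their r with the brightest probe set was -0.09 and -0.10, and -0.61 and -0.65 without WT 4 and WT 5.

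WT 2 was also the array richest in slow-fibre transcripts. The mean of Myh7, Tnnc1, Tnni1 and Tnnt1, the slow forms of myosin heavy chain and of the troponins, was 9.91 on WT 2 and lay between 5.03 and 7.27 on the other arrays. On WT 4, WT 5, KO 1 and KO 3 it was at or below the array medians of 5.58 to 5.61. With no detection call, whether slow-fibre transcripts were present on those arrays is not known. This mean was chosen after the values were seen. Slopes on it were 0.15 (95% confidence interval 0.06 to 0.24; limma adjusted p = 0.160) for 1416551_at and 0.12 (0.04 to 0.20; limma adjusted p = 0.181) for 1452363_a_at. Neither passed the test, and no member did, against 0.083% of all probe sets. Without WT 2 the slopes were 0.00031 and -0.00078, so they rest on that array.

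Leaving out an array could not turn the sign of the pair's genotype differences, because every WT array lay above every KO array. Without WT 2 the differences were smaller, at -0.26 and -0.25 (unadjusted limma p of 0.0057 and 0.0043, adjusted p = 0.489 for both). With the slow-fibre mean as a covariate they were -0.28 and -0.27 (limma adjusted p = 0.378 and 0.330). With Acta1 as a covariate they were -0.39 and -0.38 (limma adjusted p = 0.653 and 0.639). No setting tried brought either past the adjusted test.

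The other Atp2a2 probe sets lay with the brightest or were dim. 1427251_at ranged from 8.34 to 8.75 and differed by -0.04, and 1437797_at ranged from 6.96 to 7.20 and differed by 0.04. The dim 1443551_at, with a mean of 4.96, differed by 0.18 ± 0.11 (SE; limma adjusted p = 0.885). The brightest probe set had r = 0.76 with 1427251_at (permutation p = 0.011, adjusted p = 0.049), which was 0.45 without WT 4 and WT 5. Where in the transcript each probe set lies, and so which pump form it reads, is not stated in the sources used here.

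None of the 6 probe sets passed the slope test on Acta1. The lowest r among them, and among all 16, was -0.64 for 1437797_at (permutation p = 0.041). Their slopes lay between -0.020 and 0.015, and no interval of the difference between probe sets of 1 gene excluded 0 on Acta1 among 18 pairs. On the slow-fibre mean it excluded 0 in 8 pairs, each of them 1416551_at or 1452363_a_at against 1 of the other 4 Atp2a2 probe sets. Without WT 2, the interval still excluded 0 in 3 of these 8 pairs and no longer did in 5. Among the 3, 1416551_at against 1427250_at went from a slope difference of 0.21 (95% confidence interval 0.13 to 0.29) to 0.096 (0.011 to 0.18). Among the 5, 1416551_at against 1437797_at went from 0.18 (0.08 to 0.28) to 0.062 (-0.062 to 0.19). Most like the brightest probe set were Smpd1 (r = 0.98), acid sphingomyelinase, Pdp2 (r = 0.96), the phosphatase of pyruvate dehydrogenase, and Idh3a (r = 0.96), a subunit of the citric acid cycle enzyme isocitrate dehydrogenase.

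**Figure D4:**
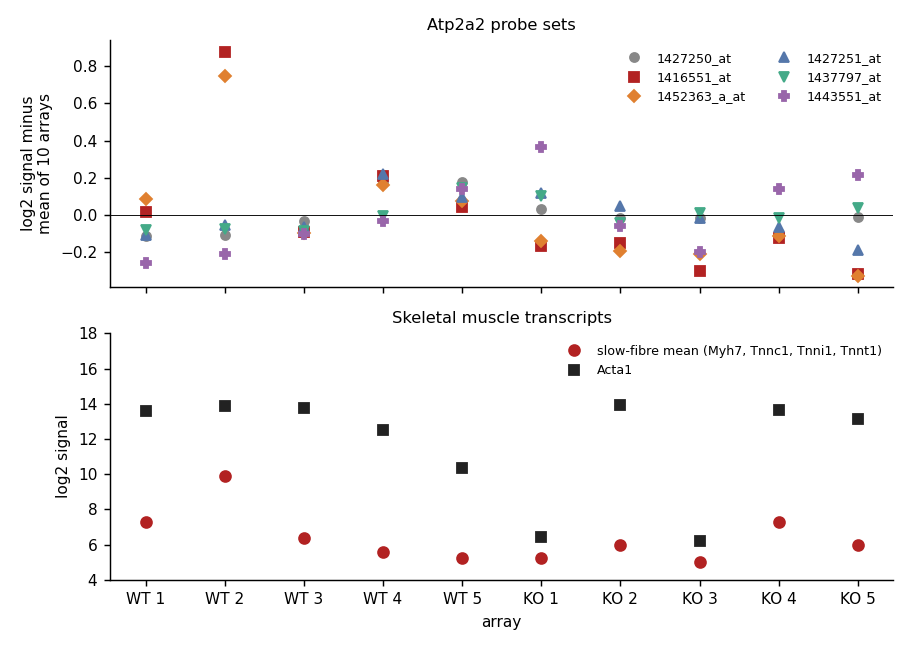
Upper panel, the 6 Atp2a2 probe sets on each array as log2 signal minus the probe set's mean over 10 arrays; lower panel, the log2 signal of Acta1 and of the slow-fibre mean on the same arrays. 1416551_at and 1452363_a_at stand highest on WT 2, where the slow-fibre mean is 9.91, while the brightest probe set does not.

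Atp2a3 encodes SERCA3, a pump of blood, endothelial and some epithelial cells. Its brighter probe set (1421129_a_at) read 7.33, 7.39, 6.98, 7.29 and 7.29 in WT 1 to 5 and 7.46, 7.18, 7.15, 7.17 and 7.29 in KO 1 to 5. The other (1450124_a_at) read 6.72, 6.78, 6.46, 6.64 and 6.65 in WT and 6.60, 6.64, 6.69, 6.62 and 6.56 in KO. Both were lowest on WT 3 among all 10 arrays, and otherwise the groups overlapped. The differences were -0.0045 ± 0.087 (SE; limma adjusted p = 0.996) and -0.02 ± 0.065 (SE; limma adjusted p = 0.968), and the sign of each turned under some settings. The mean of the 5 endothelial markers was also lowest on WT 3, at 7.96 against 8.12 to 8.53 on the other arrays, and its part in the Atp2a3 values was not tested. Most like Atp2a3 were Notch2 (r = 0.90) and Gnaq (r = 0.85), a G protein subunit, and Egfl7 (r = 0.84), a protein secreted by endothelial cells. These r values were picked as the highest of many and were not tested.

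Over all 16 probe sets, limma called 0 between genotypes, against 0% of the 34945 probe sets tested. At an unadjusted p under 0.05 there were 3 of 16, namely Gamt and the separated Atp2a2 pair, against 5.41% of all probe sets. In KO, 7 of the 16 were higher and 9 lower, with a median of -0.01 against -0.0059 over all probe sets. With Acta1 as a covariate limma again called 0 of 16, against 0%, and 3 of 16 had an unadjusted p under 0.05, against 7.61%. These were the Atp2a2 pair and 1448596_at of Slc6a8. Of the 16, 12 had a mean signal above the median over all probe sets of 5.99.

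**Figure D5:**
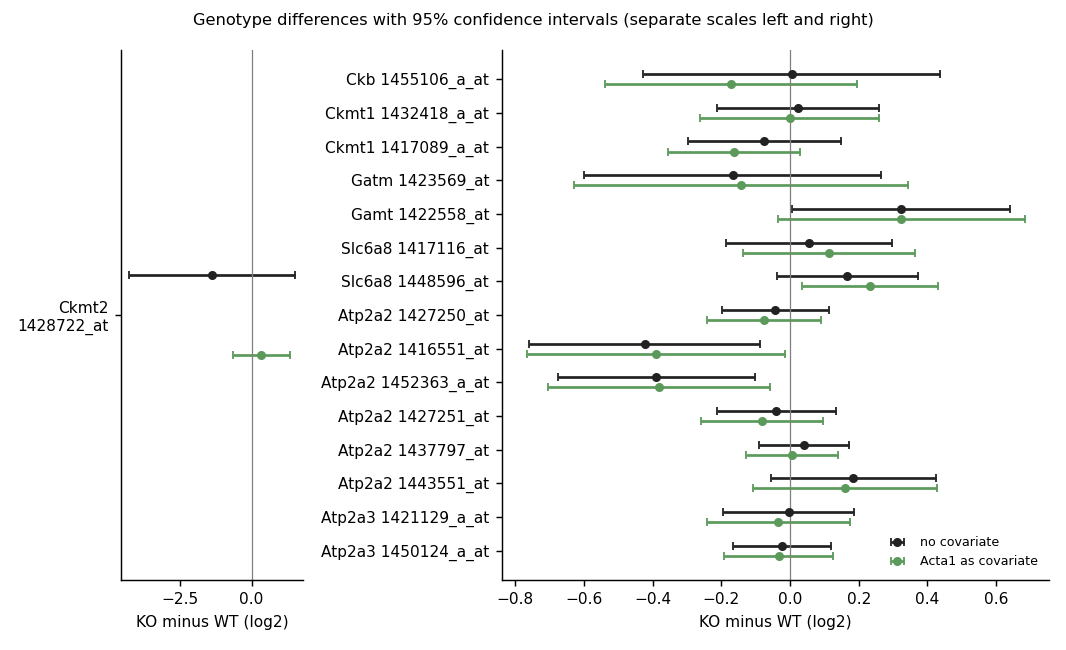
KO minus WT log2 difference with its 95% confidence interval for each of the 16 member probe sets, without a covariate and with Acta1 as a covariate. The Ckmt2 interval runs from -4.25 to 1.51 without the covariate and from -0.65 to 1.33 with it, and the intervals of 2 Atp2a2 probe sets lie below 0 in both fits.

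Other genes of creatine and phosphate transfer were read from a list of 10, of which 8 were measured. Of these, 2 were higher in KO and 6 lower, 0 passed the test, and the median was -0.05. Slc16a9, a carrier of creatine and carnitine, read 5.45 to 5.56 in WT and 5.20 to 5.39 in KO. These signals lie below the array medians, so the files do not say whether the transcript was present. The groups did not overlap, as in 0.693% of all probe sets, and the difference was -0.14 (95% confidence interval -0.26 to -0.02; unadjusted limma p of 0.023, adjusted p = 0.885). Ckm was the 1 member of this list that followed Acta1 past the test. Ak3, the adenylate kinase of the mitochondrial matrix, had the lowest r with Acta1 (-0.73). Alpl, the phosphatase reported to act on phosphocreatine in thermogenic fat, had r = 0.44, and its difference was -0.05.

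Of 35 calcium handling genes 31 were measured. Of these, 11 were higher in KO and 20 lower, 0 passed the test, and the median was -0.08. With Acta1, 7 rose past the test, against 0.458% of all probe sets, and 0 fell. Besides Atp2a1 these were Ryr1, the calcium release channel of muscle, with a slope of 0.78 (limma adjusted p = 4.8e-05), Casq1, the calcium store protein of fast fibres, with 0.71 (8.4e-05), and Trdn, a partner of Ryr1, with 0.48 (0.0047). Tmem38a, a potassium channel of the reticulum, gave 0.35 (0.012), Jph1, a junction protein, 0.23 (0.020) and Srl, sarcalumenin, 0.22 (0.00069).

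Of the small membrane proteins that bind and inhibit SERCA pumps, Pln (phospholamban), Sln (sarcolipin) and Mrln (myoregulin) were measured, and none passed the slope test. Mrln had a slope on Acta1 of 0.15 (95% confidence interval 0.08 to 0.23; limma adjusted p = 0.140) and r = 0.81. Sln had a slope of 0.13 (-0.0037 to 0.26; limma adjusted p = 0.591) and r = 0.63, and Pln a slope of 0.00057. Sln differed between genotypes by -0.66 (95% confidence interval -1.46 to 0.13; unadjusted limma p of 0.094, adjusted p = 0.885) and was highest on WT 2, at 6.25. Orai3, a store-operated calcium channel, differed by -0.33 (-0.71 to 0.05; unadjusted limma p of 0.083, adjusted p = 0.885). Fkbp1b, a ryanodine receptor partner, had the lowest r with Acta1 of the list, -0.79, and Mcu, the mitochondrial calcium uniporter, had -0.45. Fkbp1b read 4.79 to 5.35, below the array medians on every array, and Sln lay below them on every array but WT 2. With no detection call, whether these 2 transcripts were present on those arrays is not known.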

How the data were processed

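Brown adipose RNA of 10 mice (6 ug of total RNA) was measured on Affymetrix arrays. The deposited log2 values were made by RMA, per the submitters' processing notes, with software, version and settings not given in the sources used here. RMA makes array distributions alike, so a shift shared by most transcripts would not show, and gives no detection call. Groups came from the sample titles. Of 45101 probe sets, 64 were controls, 932 had several genes, 9160 had none and 34945 had 1 gene in the platform annotation (34741 matched RefSeq by gene ID).

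Differences (KO minus WT) and slopes on Acta1 (genotype in the model) were fitted with limma 3.58.1 (lmFit, then eBayes) under R 4.3.3, with two-sided tests. Adjustment was by Benjamini and Hochberg over all probe sets, and an adjusted p under 0.05 was called. Errors beside differences are standard errors. Intervals are 95% and unadjusted. Permutation tests were two-sided, from 100000 resamples with 10 arrays and exact with fewer. The fit was also run on simulated data with noise drawn independently for each probe set. Muscle transcripts moved together on these arrays, so the simulation does not test the calls under such shared variation. Precision is limited by the number of arrays.

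The members, gene lists and tests were chosen with earlier results of these data known. Named genes were the members, Acta1, Sirt3, Ckm and Atp2a1. From each pathway list they were up to 4 with the smallest genotype p, 6 with the highest and 4 with the lowest r with Acta1, and for each member the 3 genes with the most similar signal. Jph1, Pln and Mrln were named beyond this rule after their values were seen. Marker lists besides muscle, brown adipocyte, macrophage and endothelial had these means over the arrays: platelet 6.19 to 6.35, lymphocyte 4.56 to 4.82, smooth muscle 6.81 to 8.00, Schwann cell 8.28 to 8.71 and erythroid 5.28 to 5.59. No marker of any list passed the genotype test.

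Alternatives covered normalization, filters, probe set choice, variance model, array weights, the replicate number as a block, covariates and left-out arrays. The slow-fibre mean and the fits without WT 4 and WT 5 were added after the data were seen.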

Additional observations from a re-analysis of the deposited data

Results flagged for a closer look

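One of the 32 groups of 5 arrays (16 probe sets in WT and in KO) held an array far from the others. In the brighter probe set of Atp2a3 (1421129_a_at), WT 3 read 6.98, while the other WT arrays read between 7.29 and 7.39. The gap to the nearest array was 0.745 of the range of the group, above the critical value of 0.71 for 5 arrays. Chance flags about 1 in 20 groups.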

How the results depend on the processing

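Among the 16 probe sets, 0 were called by genotype in every setting run, and Ckmt2 alone was called by its slope on Acta1 except with the slow-fibre mean in place of Acta1, where 0 were called. Over all probe sets, limma called 0 by genotype except 1 without WT 2 (Ptprb) and 1 with the slow-fibre covariate (Cald1), and 0 to 1 over the arrays left out in turn. It called 168 slopes, but 305 without the 3 arrays lowest in muscle, 343 with the muscle list mean, 29 with the slow-fibre mean and 77 to 218 with each array left out, of which KO 1, KO 2, KO 3 and KO 4 each moved the count by more than 1.5 times. Of 18 pairs of probe sets 0 differed in their slope on Acta1, 0 to 1 with arrays left out (1 without WT 2 or KO 3), and 8 on the slow-fibre mean, of which 3 remained without WT 2. Members with an unadjusted permutation p under 0.05 for r with Acta1 numbered 3, but 7 without KO 1 and KO 3. With arrays left out in turn they numbered 1 to 4 (1 without WT 1, WT 2, WT 3, KO 2 or KO 4). The share of all probe sets with such a p was not computed, so these counts do not set the members apart from other probe sets.

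Deviations of same-numbered arrays from their group means had r of -0.11, 0.17, -0.33, -0.25 and 0.06. These r values are over all probe sets, where muscle RNA differs widely between arrays, so they cannot show whether the numbers pair animals. With the replicate block 0 probe sets were called by genotype, and Atp2a2 1416551_at kept its difference of -0.42 (limma adjusted p = 0.923). Its unadjusted limma p was 0.0094 with the block and 0.018 without it. For Gamt this p was 0.017 with the block and 0.046 without it, and for Slc6a8 1448596_at 0.13 and 0.10. The slopes of Atp2a2 1416551_at (-0.033), 1452363_a_at (-0.034) and Gatm (-0.0015) turned sign under the block.

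Signs turned mostly in values near 0, and the cause was not tested. Among genotype differences, those without the 3 arrays lowest in muscle were -0.21 for Ckb and -3.1e-05 for Slc6a8 1417116_at. Without WT 4 and WT 5 they were -0.12 for Slc6a8 1417116_at, 0.0012 for Ckmt1 1417089_a_at, 0.016 for Atp2a3 1421129_a_at, 0.062 for Atp2a2 1427250_at and 0.053 for Atp2a2 1427251_at. Array weights gave 0.045 and 0.0093 for the Atp2a3 probe sets and -0.0053 for Ckmt1 1432418_a_at. The Acta1 covariate gave 0.34 for Ckmt2, -0.17 for Ckb and -0.0015 for Ckmt1 1432418_a_at, and the slow-fibre covariate 0.014 and 0.0042 for Atp2a3, -0.045 for Ckmt1 1432418_a_at and -0.063 for Ckb.

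Slopes that turned were Gamt (-0.0038) and Atp2a2 1452363_a_at (-0.00081) after another quantile normalization, Gatm (-0.12) and Atp2a3 1450124_a_at (0.028) without the 3 arrays, and Gamt (-0.027), Atp2a2 1443551_at (0.0016) and 1452363_a_at (-0.0024) without WT 4 and WT 5. Gamt was -0.021 with no genotype term. With the slow-fibre mean the Atp2a3 slopes were 0.019 and 0.028 and Gatm -0.11. Pearson's r with Acta1 turned for Gatm (-0.029) and Gamt (0.88) without KO 1 and KO 3, for Gamt (0.0033) after group means were subtracted and for Atp2a3 1450124_a_at (0.0064) with the muscle list.

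With each array left out, genotype differences that turned ranged from -0.027 to 0.14 (Slc6a8 1417116_at), -0.073 to 0.029 and -0.071 to 0.0099 (Atp2a3), -0.074 to 0.010 (Atp2a2 1427251_at), -0.058 to 0.082 (Ckmt1 1432418_a_at) and -0.15 to 0.13 (Ckb). With the Acta1 covariate these were -0.46 to 0.019 (Gatm), -0.19 to 0.61 (Ckmt2), -0.072 to 0.059 (Ckmt1 1432418_a_at) and -0.018 to 0.053 (Atp2a2 1437797_at). Slopes ranged from -0.033 to 0.0025 and -0.0086 to 0.0013 (Atp2a3), -0.019 to 0.015 (Gamt), -0.037 to 0.035 (Gatm), -0.050 to 0.014 (Atp2a2 1443551_at) and -0.0061 to 0.012 (Atp2a2 1452363_a_at). The r values ranged from -0.42 to 0.0084 (Gamt), -0.72 to 0.11 (Atp2a2 1443551_at), and -0.57 to 0.11 and -0.28 to 0.13 (Atp2a3).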

Other observations

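Slc6a8 and Gamt were also set against the slow-fibre mean, which was chosen after the values were seen. That mean was at or below the array medians on WT 4, WT 5, KO 1 and KO 3. The brighter Slc6a8 probe set (1417116_at) had a slope of 0.12 per log2 unit (95% confidence interval 0.07 to 0.17; limma adjusted p = 0.0899 over all probe sets), and 0.13 (0.03 to 0.23; limma adjusted p = 0.390) without WT 2. Its Pearson's r with that mean was 0.78 (permutation p = 0.011) over 10 arrays and 0.88 (exact permutation p = 0.0065) within the 7 arrays that lie together in Acta1. Without WT 1 and WT 2 it was 0.56 (exact permutation p = 0.15), so the relation rests in part on those arrays. The other Slc6a8 probe set (1448596_at) had a slope of 0.081 (0.02 to 0.14; limma adjusted p = 0.242) and r = 0.42 (permutation p = 0.22) over 10 arrays, and r = 0.33 (exact permutation p = 0.40) within the 7. Gamt had a slope of 0.12 (0.02 to 0.22; limma adjusted p = 0.281).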
